A study of Mus musculus with 18 samples.

Results

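Accessible chromatin regions of CD24-negative and CD24high lung epithelial cells were compared within mice given an inhibitor of G9a. The members were taken from the peak lists of CD24-negative (CD24neg) replicates 2 and 3 and CD24high replicates 2 and 3. Repeated lines were dropped, and peaks that overlapped by at least 1 bp in any of the 4 lists were merged into regions. A region was CD24neg-only when both CD24neg lists and neither CD24high list held a peak in it, CD24high-only in the opposite case, and shared when all 4 lists held one. The 4 lists gave 6827 regions, of which 3949 (57.8%) were CD24neg-only, 2625 (38.5%) were CD24high-only and 151 (2.21%) were shared. The other 102 regions had a peak in 1 CD24neg list (71), in 1 CD24high list (28) or in a mixed set of lists (3). All lists of the series together gave 33312 merged regions. The lists are subsets of the called peaks, marked as unique in their deposited names, and are treated here as selected against the vehicle arm, although how the subsets were made is unstated. A region missing from a list is therefore not shown to be closed, and the sets say which regions were listed for a population, not which were open in it.

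The study measured chromatin accessibility by ATAC-seq, which reads out where a transposase can cut the DNA, in sorted lung cells of adult c57/bl6 mice aged 6 to 12 weeks. All cells were CD31- and CD45-negative, Epcam-positive and Sca-1-positive, and were divided into CD24-negative, CD24low and CD24high cells, with 10000 cells per library. The arms were treatment with a G9a inhibitor (G9ai) and vehicle, with 3 mice in each, and no transgene or deletion is named for either arm. The sources used here do not give the inhibitor's name, dose, route or duration. The 18 samples formed 6 groups, and peak lists of 10 were analysed. CD24neg G9ai and CD24high G9ai each had 2 lists, and replicate 1 of either group was not analysed here. The labels give each library a number but do not say which mouse it came from.

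G9a, encoded by Ehmt2, is an enzyme that methylates lysine 9 of histone H3, a mark of repressed chromatin. The epithelium sorted through Epcam includes secretory, multiciliated and basal cells of the airway and type 1 and type 2 cells of the alveolus, and CD24 is a surface glycoprotein that is abundant on multiciliated cells. Motile cilium genes are controlled by RFX transcription factors, which bind an X-box in many of their promoters, and surfactant genes of alveolar type 2 cells are controlled by factors that include CEBPA and NKX2-1.

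Each promoter below had a region of 1 set over it. The first 5 and that of Slc34a2 were picked with the gene's role and its motif letters known. Their matches therefore do not show how frequent the letters are. Supt4a and Mxd3 ranked high in their sets. Each line gives the 250 bases before the RefSeq start site of a gene (GRCm38.p6, the assembly that mm10 names), 5′ to 3′ on the gene's strand. The first 5 genes had a CD24neg-only region, and capitals mark the RFX core letters GTTGCC on either strand. Slc34a2 had a CD24high-only region, and capitals mark the CEBP letters TTGCGCAA. Supt4a had a CD24high-only and Mxd3 a shared region, and capitals mark the SP/KLF letters GGGGCGGGG on either strand. A match to such letters is a description of the sequence and not a measured binding site.
Sntn, chr14:13670626-13670875, + strand: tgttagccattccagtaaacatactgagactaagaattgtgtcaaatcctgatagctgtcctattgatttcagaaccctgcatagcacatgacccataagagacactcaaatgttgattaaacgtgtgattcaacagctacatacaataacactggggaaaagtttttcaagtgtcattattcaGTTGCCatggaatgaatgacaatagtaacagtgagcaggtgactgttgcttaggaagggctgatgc
Spag16, chr1:69826720-69826969, + strand: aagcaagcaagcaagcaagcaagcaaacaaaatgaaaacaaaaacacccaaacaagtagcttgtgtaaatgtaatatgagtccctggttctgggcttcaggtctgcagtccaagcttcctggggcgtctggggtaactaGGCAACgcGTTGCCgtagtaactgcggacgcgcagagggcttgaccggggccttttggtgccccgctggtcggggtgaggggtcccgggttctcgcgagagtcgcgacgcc
Hydin, chr8:110266727-110266976, + strand: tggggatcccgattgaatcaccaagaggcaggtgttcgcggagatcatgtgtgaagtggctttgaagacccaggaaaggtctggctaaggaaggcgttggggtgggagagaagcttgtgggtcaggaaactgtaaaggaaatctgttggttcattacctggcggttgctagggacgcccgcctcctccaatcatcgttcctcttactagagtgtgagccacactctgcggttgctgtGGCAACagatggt
Cfap74, chr4:155408990-155409239, + strand: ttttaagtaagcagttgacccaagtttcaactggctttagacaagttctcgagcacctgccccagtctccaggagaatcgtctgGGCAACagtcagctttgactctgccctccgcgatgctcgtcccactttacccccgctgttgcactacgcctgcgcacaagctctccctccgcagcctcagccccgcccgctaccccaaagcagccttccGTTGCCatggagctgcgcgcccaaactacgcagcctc
Cfap97d2, chr8:13705639-13705888, + strand: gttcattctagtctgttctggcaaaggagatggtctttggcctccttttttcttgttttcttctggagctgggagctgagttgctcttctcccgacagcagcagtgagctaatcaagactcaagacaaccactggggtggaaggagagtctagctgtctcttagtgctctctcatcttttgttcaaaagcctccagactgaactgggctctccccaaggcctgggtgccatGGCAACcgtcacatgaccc
Slc34a2, chr5:53049103-53049352, + strand: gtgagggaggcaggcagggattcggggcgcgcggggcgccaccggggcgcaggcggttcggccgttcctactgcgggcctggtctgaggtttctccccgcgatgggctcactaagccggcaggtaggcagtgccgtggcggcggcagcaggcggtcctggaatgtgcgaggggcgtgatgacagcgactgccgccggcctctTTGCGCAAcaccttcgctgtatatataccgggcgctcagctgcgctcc
Supt4a, chr11:87737301-87737550, + strand: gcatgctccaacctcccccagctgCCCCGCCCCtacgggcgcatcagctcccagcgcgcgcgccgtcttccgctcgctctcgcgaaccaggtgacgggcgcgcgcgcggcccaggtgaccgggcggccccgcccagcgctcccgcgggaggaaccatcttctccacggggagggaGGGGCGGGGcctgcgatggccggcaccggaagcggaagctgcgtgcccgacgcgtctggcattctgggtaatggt
Mxd3, chr13:55329732-55329981, - strand: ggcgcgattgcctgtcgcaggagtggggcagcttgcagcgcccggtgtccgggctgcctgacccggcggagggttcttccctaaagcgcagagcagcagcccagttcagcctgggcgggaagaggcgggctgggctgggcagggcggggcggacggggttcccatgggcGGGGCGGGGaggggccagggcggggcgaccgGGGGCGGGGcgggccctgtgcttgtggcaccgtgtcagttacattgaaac
In all 8 genes the capital letters lay inside the region found there. The first match began 66 bases before the start site of Sntn, 111 before that of Spag16, 13 before that of Hydin, 166 before that of Cfap74 and 19 before that of Cfap97d2. Spag16 held 2 core matches on opposite strands, the second beginning 103 bases before the start site, and Cfap74 held its second 37 bases before it.

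The CD24neg lists were longer than the CD24high lists. After repeats were dropped, CD24neg replicate 2 held 4173 peaks and replicate 3 held 4149, and CD24high replicate 2 held 2798 and replicate 3 held 2817. The mean was 4161 ± 17.0 peaks (SD, n = 2) in CD24neg and 2807.5 ± 13.4 (SD, n = 2) in CD24high, a ratio of 1.48. The groups did not overlap, and the two-sided exact permutation test gave p = 0.33, the smallest that 2 libraries against 2 can give. When all lists were trimmed to the 2798 highest-scoring peaks, CD24neg-only regions numbered 1895 and CD24high-only regions 2630, the reverse order. The trim took peaks almost only from the CD24neg lists, each by its own scores, and a region needs a peak in both replicates. A fall of the CD24neg-only count was thus built in, and the turned order says nothing about the populations. Replicates of a population listed nearly the same places: 99.1% of the peaks of each CD24neg list overlapped the other, and 99.6% and 99.4% of those of the CD24high lists did. Lists that coincide to this degree do not show how much libraries differ, so a peak in both replicates is not an independent check, and the spread between lists is smaller than a spread between libraries may be. Between populations the overlap was 3.57% to 3.74% of the CD24neg peaks and 5.29% to 5.40% of the CD24high peaks. The highest peak number in a name was 76240 to 92310, so the lists held 3.03% to 5.23% of the peaks that had been numbered. The peak scores of the lists range from 40 to 1152. Their scale is unstated, and they serve below only to rank peaks within a list. Read depth is unknown.

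**Figure D1:**
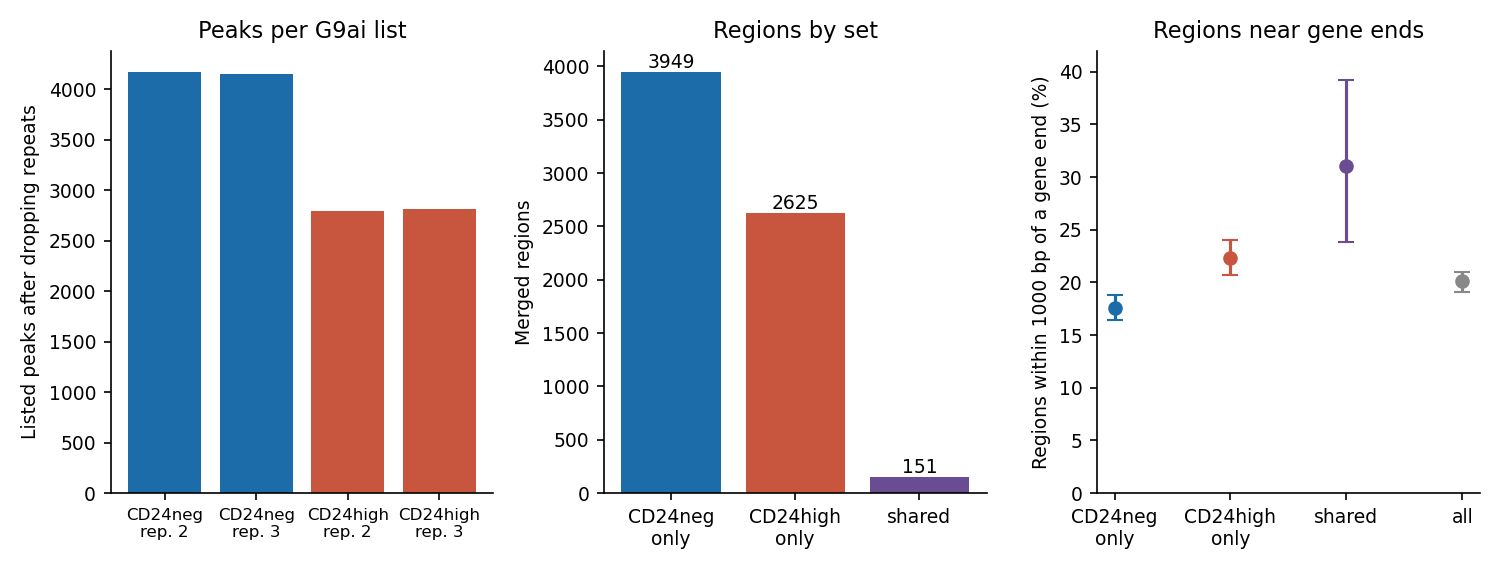
Left, peaks per G9ai list after repeats were dropped, 1 bar per library; middle, merged regions in each set; right, the percent of regions that lie at most 1000 bp from a gene end, with exact binomial 95% intervals. The CD24neg lists held 4173 and 4149 peaks and the CD24high lists 2798 and 2817. Near a gene end lay 17.6% of CD24neg-only and 22.3% of CD24high-only regions, against 20.1% of all regions.

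CD24high-only regions lay near gene ends more often than CD24neg-only regions. At most 1000 bp from the start or end of a protein-coding gene lay 696 of 3949 CD24neg-only regions (17.6%, exact Clopper-Pearson 95% interval 16.4% to 18.8%), 586 of 2625 CD24high-only regions (22.3%, 20.7% to 24.0%) and 47 of 151 shared regions (31.1%, 23.8% to 39.2%). These intervals cover counting error only and treat regions as independent. With the higher-scoring 50% of peaks the shares were 20.0% and 21.3%, so most of the difference between the sets was not seen there. Over the lists themselves more of it remained. The mean difference per list, CD24neg minus CD24high, was -3.16 percentage points with those peaks and -4.72 with all peaks. By library the share was 18.0% and 18.2% of the CD24neg peaks and 22.8% and 22.9% of the CD24high peaks. Both CD24high lists lay above both CD24neg lists (means 18.1% ± 0.125 and 22.8% ± 0.0922, SD, n = 2 each; two-sided exact permutation test p = 0.33). Median widths were 192 bp in CD24neg-only and 190 bp in CD24high-only regions. Peaks were also of like width, with a median of 145 and 160 bp in the CD24neg lists and 154 and 152 bp in the CD24high lists, groups that overlapped (p = 1 by the same exact test).

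Most regions of either set lay away from start sites. The median distance to the nearest start site of the RefSeq promoter table was 14375 bp for CD24neg-only regions, 13106.5 bp for CD24high-only regions and 7043 bp for shared regions. A start site was farther than 10000 bp from 58.6%, 55.6% and 44.6% of them. The promoter window of a gene was the 250 bases before and 50 after a start site. A window was overlapped by 349 of 3804 CD24neg-only regions (9.17%), 261 of 2534 CD24high-only regions (10.3%) and 22 of 148 shared regions (14.9%). Over all regions it was 656 of 6586 (9.96%), so the CD24neg-only and CD24high-only shares lay near that of all. The windows of chromosome 18 were not used here, so regions of that chromosome are left out of these counts. Promoter overlap by library was 8.44% ± 0.544 in CD24neg and 9.72% ± 0.306 in CD24high (SD, n = 2; p = 0.33 by the exact permutation test).

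**Figure D2:**
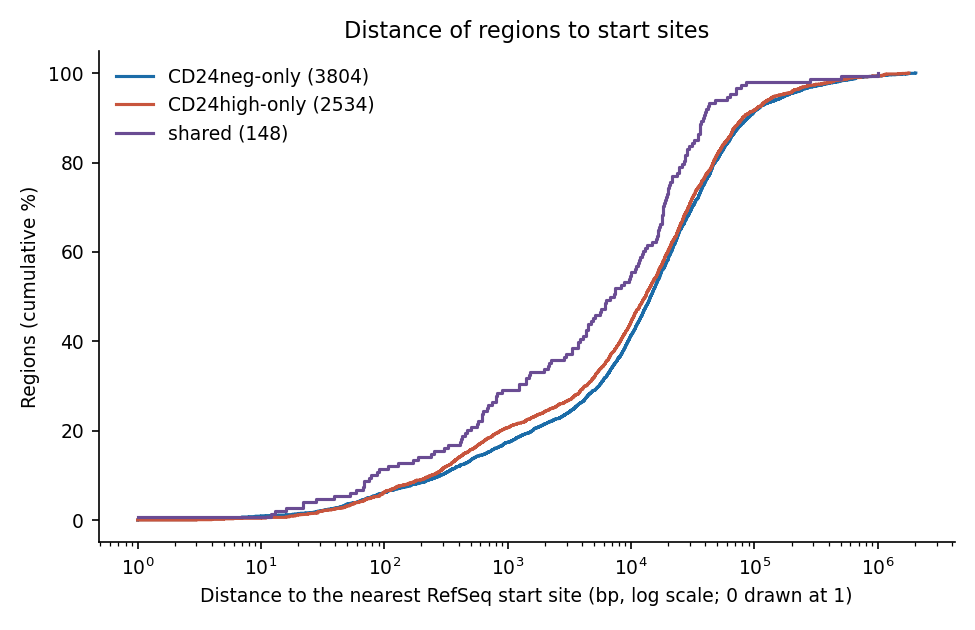
Cumulative percent of regions (y axis) against the distance to the nearest RefSeq start site in bp on a log scale (x axis), with 1 line per set and the number of regions in the legend. The line of the 148 shared regions lies left of the others, with a median of 7043 bp, and the CD24neg-only and CD24high-only lines run close together, with medians of 14375 and 13106.5 bp.

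Promoters of motile cilium genes carried CD24neg-only regions. Over all genes with a promoter window, 298 of 17492 protein-coding genes (1.7%) had a CD24neg-only region over it, 229 (1.31%) a CD24high-only region and 19 (0.109%) a shared one. Of the 36 axoneme genes with a window, 4 (11.1%) had a CD24neg-only region over it and 0 a CD24high-only or shared one. The 4 were Sntn, Spag16, Hydin and Spag6l, and all 4 windows held the RFX core letters. The axoneme is the microtubule core of the cilium. Counts of 4 are small, and the list was chosen with earlier results of these data known.

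Sntn, which encodes sentan of the ciliary tip, had the highest-ranked of the 4 regions. Its region, chr14:13670611-13670948, spanned the whole promoter window and scored 141 in CD24neg replicate 2 and 171 in replicate 3. They stood at the 93.7th and 94.7th percentiles of their lists. The same place was also listed in the CD24neg vehicle library, so it was not a region of the G9ai arm alone. A second region of Sntn, chr14:13676121-13676289, lay inside the gene and was CD24high-only, with scores of 113 and 101.

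The other 3 axoneme promoters had lower or less even scores. Spag16, which encodes a central pair protein, had a CD24neg-only region at chr1:69826772-69827013 with scores of 124 and 97. The region of Hydin, another central pair gene, lay at chr8:110266827-110266989 and scored 62 in replicate 2 and 200 in replicate 3. That of Spag6l, a central apparatus gene, lay at chr16:16829131-16829506 and scored 76 and 110. None of these 3 places was in a vehicle list of CD24neg or CD24high or in both lists of CD24low cells in either arm.

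Further cilium genes outside the fixed lists were found by looking through the promoters, so they are named after their values were seen. Cfap74 and Cfap97d2, members of the cilia and flagella associated protein family, had CD24neg-only regions at chr4:155409034-155409283 (scores 59 and 46) and chr8:13705837-13705935 (scores 62 and 54). Both ranked low in their lists. Cfap161, of the same family, had one at chr7:83794783-83795035 with scores of 111 and 170. By symbol, 3 of 27 Cfap genes with a window had a CD24neg-only region over it and 0 a CD24high-only one, and for Ccdc genes, which code for coiled-coil proteins of many roles, the counts were 5 of 111 and 0. The 14 Dnah genes, which code for axonemal dynein heavy chains, had 0 and 1 (Dnah7b), and the 11 Ift genes, which code for transport proteins of the cilium, had 0 of either kind.

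**Figure D3:**
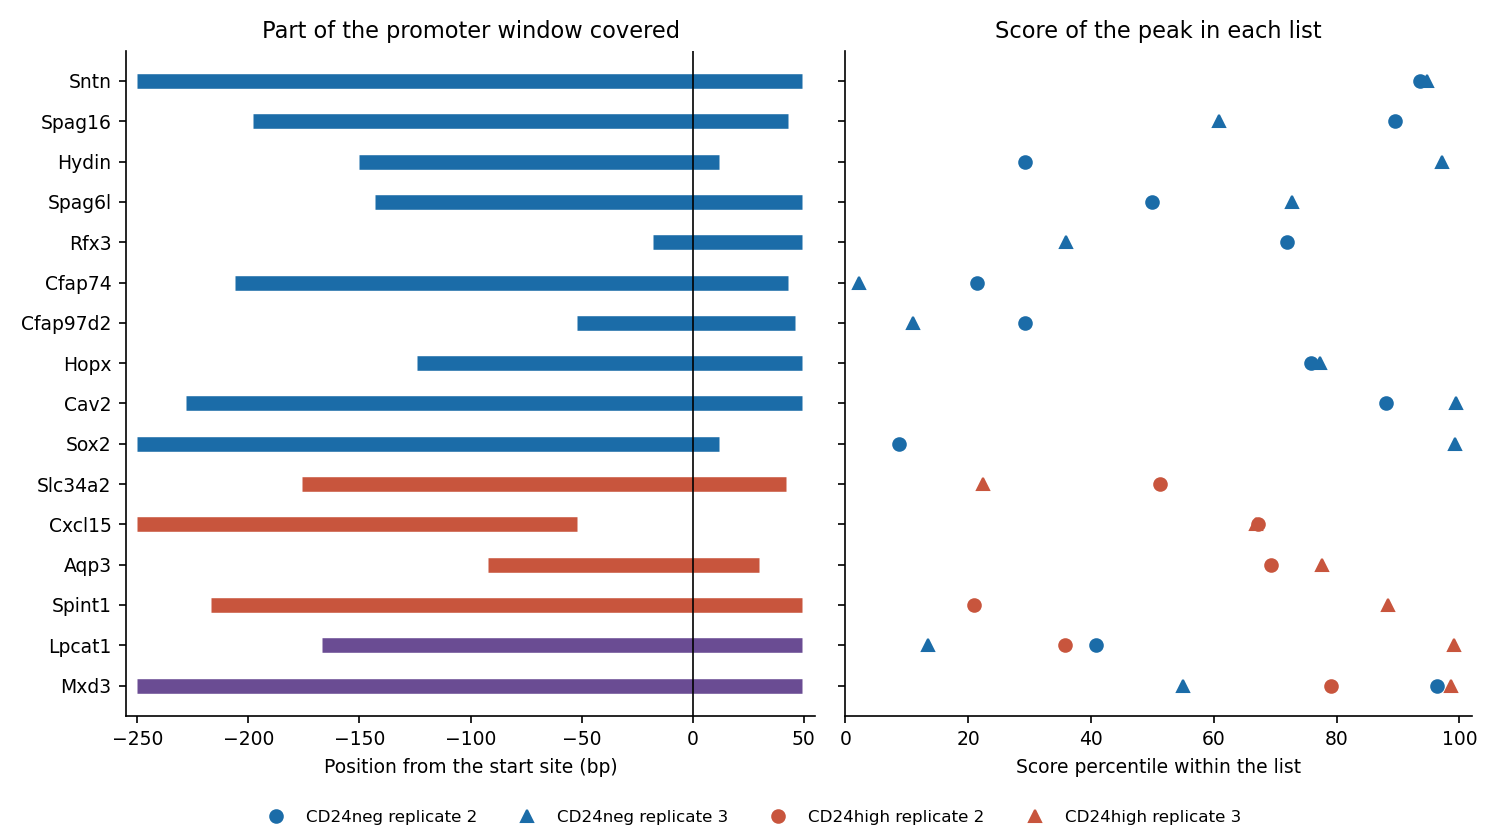
Left, the stretch of each promoter window covered by a region, as bp from the start site at 0 (blue, CD24neg-only; red, CD24high-only; purple, shared); right, the percentile of the peak score within its list, 1 symbol per library. The region of Sntn covers the whole window and stands at the 93.7th and 94.7th percentiles, while that of Sox2 stands low in replicate 2 (score 50) and high in replicate 3 (score 372).

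RFX letters were more frequent in promoters with CD24neg-only regions than in those with CD24high-only regions. The core letters GTTGCC were found on either strand in the windows of 53 of 298 genes with a CD24neg-only region (17.8%), 18 of 229 with a CD24high-only region (7.86%), 2 of 19 with a shared region and 2510 of all 17492 genes (14.3%). For the sets only windows with a region over them counted, and for all genes any window did, which can raise the last share. Per window, non-coding genes included, the shares were 16.5% (CD24neg-only), 8.0% (CD24high-only) and 12.5% (all windows). The longer RFX full site, which begins with the core letters, was found in 6 (2.01%), 3 (1.31%), 0 and 97 (0.555%) genes. The 6 were Cfap74, Cfap97d2, Lrrc34, Lrriq4, Ppm1e and Sntn, and the 3 were Pafah1b2, Sik3 and Tmem121. Lrrc34 and Lrriq4 share 1 region (chr3:30647726-30648015, scores 158 and 207) and Pafah1b2 and Sik3 share another, so these counts rest on fewer regions than genes. Among the higher-scoring 50% of peaks the shares for the core letters were 22.8% of genes with a CD24neg-only region and 12.5% of those with a CD24high-only region, so the second lay near the share of all genes there. No test was made of these shares, since genes are not replicates.

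The base composition of the promoters differed along with the sets. Median GC content was 59.7% in the 411 windows with a CD24neg-only region, 64.0% in the 300 with a CD24high-only region, 67.7% in the 28 with a shared region and 52.7% in all 32851 windows. SP/KLF letters (GGGGCGGGG), made of G and C alone, followed the same order per gene, with 23.5%, 29.3% and 36.8% against 17.3% of all genes. NFY letters (CCAAT) were found in 33.9% of genes with a CD24neg-only region, 27.9% of those with a CD24high-only region and 42.3% of all. RUNX letters (TGTGGT) stood at 10.4%, 8.73% and 17.2%, and NKX2 letters (CAAGTG) at 15.8%, 10.5% and 14.9%. ETS letters (CCGGAAG) were found in 15.8% and 12.7% of genes against 12.9% of all. As for RFX, any window of a gene counted in the shares of all genes, and only windows with a region in those of the sets. The part of GC content in the motif shares was not tested.

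**Figure D4:**
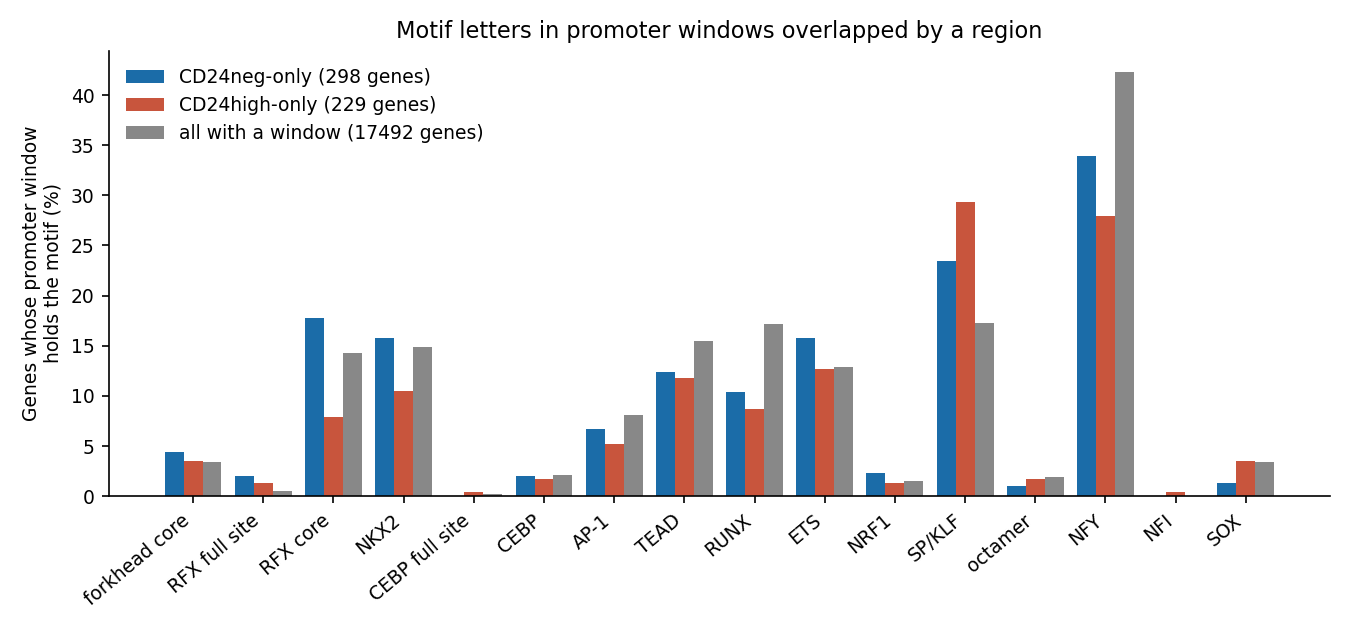
Percent of protein-coding genes (y axis) whose promoter window holds the letters of each of 16 motifs on either strand, for genes with a CD24neg-only region over the window (blue), with a CD24high-only region (red) and for all genes with a window (grey). The RFX core letters stand at 17.8%, 7.86% and 14.3%, and the SP/KLF letters at 23.5%, 29.3% and 17.3%. For all genes any window of a gene counts, and for the sets only windows with a region over them.

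A CD24neg-only region also lay beside the hairpins of miR-34b and miR-34c, small RNAs known for their part in multiciliated cell differentiation. Of 1005 hairpins in the RefSeq table, 20 (1.99%) had a CD24neg-only region within 1000 bp, 4 (0.398%) a CD24high-only region and 0 a shared one. The region chr9:51103949-51104017 lay 304 bp from the Mir34b hairpin and 839 bp from the Mir34c hairpin and scored 64 and 94. It also lay in or within 1000 bp of the protein-coding genes Btg4 and Hoatz, and cannot be assigned to one gene. The nearest CD24high-only region to Mir34b was 148457 bp away. The related hairpin Mir449a, hosted by Cdc20b, had its nearest CD24high-only region at 8997 bp and its nearest CD24neg-only region at 43063 bp. The mature sequences are shown because they share a seed (bases 2 to 8, in capitals), the part that pairs with target RNAs.
mmu-miR-34b-5p: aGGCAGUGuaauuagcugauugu
mmu-miR-34a-5p: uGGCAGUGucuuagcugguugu
mmu-miR-449a-5p: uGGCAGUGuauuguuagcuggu
mmu-miR-449c-5p: aGGCAGUGcauugcuagcugg
The hairpin of Mir34a, which has the same seed, was 178316 bp from a CD24neg-only and 144184 bp from a CD24high-only region. Mir200c, an epithelial miRNA that restrains the ZEB repressors, had a CD24neg-only region 711 bp away at chr6:124719101-124719235 (scores 71 and 108), and Mir141 of the same cluster lay 1116 bp from it. Its relatives Mir200b and Mir429, whose mature arms carry the same seed, lay 45478 and 47241 bp from the nearest CD24high-only region and 264571 and 262795 bp from the nearest CD24neg-only one.
mmu-miR-200c-3p: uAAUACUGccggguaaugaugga
mmu-miR-200b-3p: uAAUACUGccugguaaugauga
mmu-miR-429-3p: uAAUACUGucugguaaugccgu

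In whole genes the cilium lists were less one-sided than at promoters. A gene was counted for a set when a region lay in its span or within 1000 bp of it, and 2280 of 21887 protein-coding genes (10.4%) were counted for CD24neg-only regions, 1712 (7.82%) for CD24high-only and 116 (0.53%) for shared regions. With lists trimmed to equal length the first 2 counts were 1251 and 1715 genes, a turn in order that the trim largely builds in. Counts of genes thus depend on list length, which bears on every list count below. Of 44 axoneme genes, 9 (20.5%) had a CD24neg-only and 5 (11.4%) a CD24high-only region, 1 of them (Sntn) both, and with the higher-scoring 50% of peaks the counts were 4 and 3. The CD24neg-only genes were Armc4, Ccdc40, Cfap43, Cfap52, Dnah2, Hydin, Spag16, Spag6l and Sntn, and the CD24high-only genes were Cfap44, Dnah5, Dnah9, Rsph9 and Sntn. Dnah5, which encodes an outer arm dynein heavy chain, held 2 CD24high-only regions with scores of 44 and 133 and of 136 and 124. Rsph9, a radial spoke gene, had one 285 bp inside the gene with scores of 66 and 99. The CD24neg-only region counted for Dnah2 (scores 134 and 127) lay 77 bp outside that gene and 46 bp outside its neighbour Kdm6b, and cannot be assigned to one of them. The median span of the axoneme genes was 53190.5 bp and of all protein-coding genes 17169 bp, so a region by position alone is more likely in the list, and the part of gene length was not tested.

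Regulators of the multiciliated fate had regions of both sets. Of 20 genes, 4 (20.0%) had a CD24neg-only and 5 (25.0%) a CD24high-only region. Mcidas, which encodes multicilin, the switch to the multiciliated fate, had a CD24neg-only region 786 bp inside the gene (chr13:112994367-112994471) with scores of 95 and 105, and both CD24low G9ai lists held it too. Foxn4 had a CD24neg-only region with scores of 50 and 102. Myb had a CD24high-only region (chr10:21157070-21157207) with scores of 237 and 100, and Cdc20b one with scores of 65 and 132 that overlapped the promoter of Gpx8 inside it. Rfx3, one of the RFX factors, had a CD24neg-only region over its promoter window (chr19:28011063-28011184, scores 94 and 73) and a CD24high-only region less than 1000 bp away (chr19:28011757-28011863, scores 50 and 106). Trp73, which encodes the p73 factor above Foxj1, had 1 CD24neg-only and 2 CD24high-only regions. Foxj1 itself had no region in any set.

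**Figure D5:**
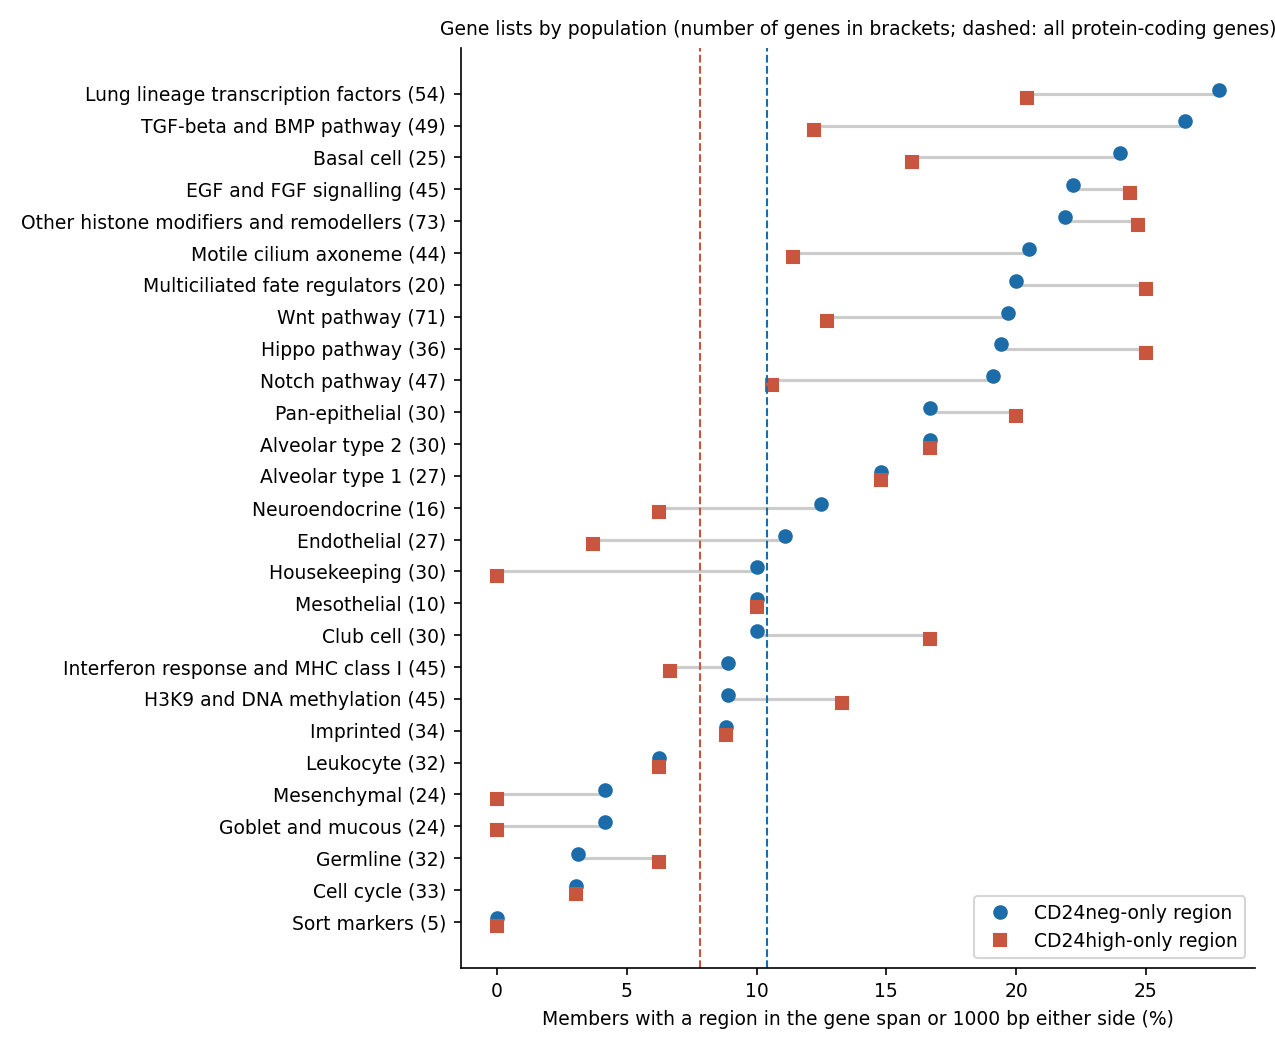
Percent of the members of each gene list (x axis; number of members in brackets) with a CD24neg-only region (blue circles) or a CD24high-only region (red squares) in the gene span or 1000 bp either side; dashed lines mark 10.4% and 7.82%, the shares over all protein-coding genes. The axoneme list stands at 20.5% and 11.4% and the club cell list at 10.0% and 16.7%; a gene with both kinds counts under both.

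Alveolar type 2 genes were split over whole genes, and the promoters with a region of 1 set were CD24high-only. Of 30 genes, 5 (16.7%) had a CD24neg-only region, 5 (16.7%) a CD24high-only region and 1 a shared region. Over promoter windows, 0 of 23 genes had a CD24neg-only region, 2 (8.7%) a CD24high-only region and 1 a shared one. Slc34a2, which encodes the phosphate transporter of type 2 cells, had its CD24high-only region at chr5:53049177-53049395, with scores of 87 and 63, over the promoter shown above with the CEBP letters TTGCGCAA. Those letters were found in 43 of 17492 genes (0.246%), in 1 gene with a CD24high-only region and in 0 with a CD24neg-only region. The looser CEBP letters TTGCNNCAA, with N for any base, did not set the sets apart. They were found in 6 of 298 genes with a CD24neg-only region (2.01%), 4 of 229 with a CD24high-only region (1.75%) and 2.09% of all. The region of Cxcl15, which encodes the lung chemokine lungkine, lay upstream of its start site at chr5:90794096-90794482 and scored 103 and 102. Abca3, the lipid transporter of lamellar bodies, held 2 CD24high-only regions inside the gene, with scores of 106 and 57 and of 53 and 56, and the former was also in the CD24neg vehicle list. Lpcat1, an enzyme of surfactant lipid synthesis, had a shared region over its promoter (chr13:73467064-73467741), which scored 69 and 55 in CD24neg and 75 and 322 in CD24high. The last library stood apart from the other 3. On the CD24neg side alone were Cd36, Ctsh, Dram1 and Il33, of which Il33, an alarmin, had scores of 83 and 152. Sftpc had no region in any set.

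Alveolar type 1 genes had as many members on either side, 4 of 27 (14.8%) each. Promoter windows of 2 of 22 genes had a CD24neg-only region and 0 a CD24high-only one. These were Cav2, which encodes caveolin 2 (chr6:17280957-17281778, scores 120 and 390), and Hopx, a homeodomain gene of type 1 cells (chr5:77114888-77115247, scores 98 and 118). Replicate 3 of Cav2 was much the higher, and the 2 scores of Hopx were close together. The Hopx place was in the CD24neg vehicle list as well. The CD24high-only genes were Clic5, Emp2, Gprc5a and Limch1, all with regions inside the gene. Gprc5a, which encodes a retinoic acid induced receptor, had the highest rank (chr6:135066778-135067056, scores 128 and 179).

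Among other airway lists, club cell genes had a few more members on the CD24high side and goblet genes were almost without regions. Of 30 club cell genes, 3 (10.0%) had a CD24neg-only and 5 (16.7%) a CD24high-only region. The counts were 0 and 2 with the higher-scoring 50% of peaks, 0 and 1 within 1000 bp of a gene end, and 0 and 0 by promoter window. Ces1d, a carboxylesterase gene, held 3 CD24high-only regions, the highest at chr8:93197666-93197824 with scores of 99 and 229. Por, which encodes the reductase of cytochrome P450 enzymes, and Aldh1a1, which encodes a retinal dehydrogenase, had regions of both sets. Scgb1a1 had none. Of 24 goblet and mucous genes, 1 had a CD24neg-only region (Agr2, scores 80 and 53) and 0 a CD24high-only one. Of 25 basal cell genes, 6 (24.0%) had a CD24neg-only and 4 (16.0%) a CD24high-only region. With the higher-scoring 50% of peaks the counts were 2 and 1, and within 1000 bp of a gene end the order turned, at 1 and 3. Promoters of Dst and Ngfr were on the CD24neg side and those of Aqp3 and Dlk2 on the CD24high side. Aqp3, a water channel gene, scored 106 and 117, and its place was also in the CD24neg vehicle list. Trp63 had no region.

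Pan-epithelial genes had 5 of 30 members (16.7%) on the CD24neg side and 6 (20.0%) on the CD24high side. Klf5, a factor of epithelial growth, held 3 CD24high-only regions, the highest at chr14:99305370-99305674 with scores of 108 and 160. Spint1, which encodes an inhibitor of serine proteases, had a CD24high-only region over its promoter with scores of 62 and 141. Cdh1, which encodes E-cadherin, held 2 regions of either set, all inside the gene. The shared region of Krt18, a simple keratin gene, lay 770 bp inside it at chr15:102028986-102029078. It scored 133 and 144 in CD24neg and 184 and 153 in CD24high, and stood at percentiles of 88.8 to 95.6 in the 4 lists.

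Transcription factors of the lung lineages had regions of both sets, and 4 promoters were among them. Of 54 genes, 15 (27.8%) had a CD24neg-only and 11 (20.4%) a CD24high-only region, and 7 had both. Over promoter windows, 3 of 33 had a CD24neg-only region (Foxa2, Meis1 and Sox2) and 1 a CD24high-only region (Mecom). Sox2, which specifies the airway epithelium, had its region at chr3:34649579-34650007 with scores of 50 in replicate 2 and 372 in replicate 3, one near the bottom and the other near the top of its list. Foxa2, a forkhead factor of the airway and alveolus, scored 66 and 90. Irx2 had the highest-ranked region of the list (chr13:72627436-72627644, scores 169 and 290), and the CD24high vehicle library listed it too. On the CD24high side alone were Gata6, Nfia, Pax9 and Tead1. Tead1, the DNA-binding partner of YAP, held 2 regions, of which chr7:112853837-112854087 scored 186 and 161. Nkx2-1 had no region.

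Genes of the Wnt and TGF-beta pathways had regions of both sets. Of 71 Wnt genes, 14 (19.7%) had a CD24neg-only and 9 (12.7%) a CD24high-only region, 2 of them (Wif1 and Znrf3) both. CD24neg-only genes also outnumbered CD24high-only genes over the whole genome, and the Wnt counts were 3 and 4 with the higher-scoring 50% of peaks and 2 and 2 by promoter window. Lgr5, a receptor for R-spondins, had a region 227 bp inside the gene (chr10:115587445-115587553) with scores of 53 and 108. Lgr6 scored 134 and 94, Axin2, a feedback inhibitor, 63 and 135, and Rnf43, a ligase that removes Wnt receptors, held 2 regions with scores of 121 and 94 and of 95 and 136. The receptor gene Ror1 held 7 CD24neg-only regions. The ligand genes Wnt3a and Rspo1 had CD24high-only regions over their promoters, with scores of 57 and 60 and of 90 and 127. Of 49 TGF-beta and BMP genes, 13 (26.5%) had a CD24neg-only and 6 (12.2%) a CD24high-only region, and with the higher-scoring 50% of peaks 7 and 2 did. The counts were closer within 1000 bp of a gene end, at 3 and 2, and by promoter window, at 2 and 1. Promoters of Inhba, a subunit of activin (scores 48 and 106), and of the BMP receptor gene Bmpr1b (98 and 54) were CD24neg-only. That of Tgfbr1, a TGF-beta receptor, was CD24high-only with scores of 116 and 529 (chr4:47352891-47353755), the second far above the first.

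Some Notch, Hippo and growth factor genes carried both sets, 5 of 47, 5 of 36 and 5 of 45, against 462 of all 21887 genes. With regions counted only near gene ends or over promoter windows, 0 genes of these lists carried both. Of all genes, 33 of 21887 did near gene ends and 3 of 17492 over promoter windows, so the 0 does not set these lists apart. Of 47 Notch genes, 9 had a CD24neg-only region and 5 (10.6%) a CD24high-only region, and all 5 of the latter had both, among them the receptor genes Notch1 and Notch2. Notch1 held CD24neg-only regions with scores of 101 and 76 and of 171 and 98, and a CD24high-only region with scores of 101 and 106. No Notch gene had a region over its promoter window, of 37 with one. Of all genes with a window, 1.7% had a CD24neg-only, 1.31% a CD24high-only and 0.109% a shared region over it. At such shares 0 of 37 is not a trait of the list. Of 36 Hippo genes, 7 (19.4%) had a CD24neg-only and 9 (25.0%) a CD24high-only region. Wwtr1, which encodes TAZ, was CD24neg-only, and Tead1, Vgll4 and the kinase gene Stk4 were CD24high-only. Vgll4, a TEAD cofactor, scored 197 and 203. Of 45 EGF and FGF signalling genes, 10 (22.2%) and 11 (24.4%) had them. The ligand gene Areg was CD24neg-only (43 and 108) and the ligand gene Btc CD24high-only (114 and 68). Egfr, their receptor, had a CD24high-only region 407 bp outside the gene (chr11:16751439-16751796, scores 153 and 154) and a weaker-ranked CD24neg-only region inside it (55 and 46). Igf1r held 4 CD24high-only regions. The median spans of these 5 lists were 29498 to 73155.5 bp, all above that of all genes.

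Enzymes of histone H3 lysine 9 and DNA methylation had regions of both sets, and the gene of G9a itself had none. Ehmt2 and its partner Ehmt1 had no region in any set. Of 45 genes, 4 (8.89%) had a CD24neg-only and 6 (13.3%) a CD24high-only region. Promoters of Uhrf1, a reader that guides maintenance methylation (chr17:56303161-56303366, scores 77 and 172), and of Wiz, a zinc finger partner of G9a (59 and 88), were CD24neg-only. Those of Cbx5, which encodes HP1 alpha (97 and 128), and Kdm7a, a demethylase (132 and 74), were CD24high-only. Dnmt3a was CD24neg-only (63 and 111) and Dnmt1 CD24high-only (53 and 87), both inside the gene. Of 73 other histone modifiers and remodellers, 16 (21.9%) had a CD24neg-only and 18 (24.7%) a CD24high-only region. Of the 54 genes with a promoter window, 3 had a CD24neg-only region over it (Hdac7, Kdm2b and Kmt2a) and 0 a CD24high-only one. Within 1000 bp of a gene end the order was the reverse, with 4 genes for CD24neg-only and 8 for CD24high-only regions. Kmt2a, a methyltransferase of lysine 4, scored 141 and 148. Ep300, a histone acetyltransferase, had a CD24high-only region 661 bp outside the gene with scores of 200 and 172.

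The highest-ranked regions of either set lay at genes outside the gene lists. Among CD24neg-only regions, that of Khdrbs1, an RNA-binding protein gene, scored 574 and 691 (chr4:129742511-129742978), and that of Dennd2c, a Rab regulator, 359 and 546. Sema3b, which encodes a secreted semaphorin, scored 340 and 407. Promoters among the top were those of Usp8, a deubiquitinase of endosomes (chr2:126707112-126707558, scores 304 and 394), Micos10 of the mitochondrial inner membrane (345 and 367), Pik3ca, the PI3K catalytic subunit (266 and 323), and Htra1, a secreted protease (264 and 321). Among CD24high-only regions, the promoter of Fyn, a Src family kinase, scored 661 and 889 (chr10:39369484-39369993). Arhgap24, a Rac regulator, scored 431 and 616. A region between Pqbp1 and Timm17b covered parts of both promoters (chrX:7899165-7899662, scores 480 and 490), and both CD24low G9ai lists held it. Supt4a, a transcription elongation factor gene, scored 327 and 368, and Cyb5r4, a reductase gene, 312 and 363. Replicate scores were of the same order in each of these regions, which follows from their choice by the mean percentile over both replicates.

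Scores of replicates agreed only loosely over the sets. Spearman's rho between replicate scores was 0.267 over 3949 CD24neg-only regions and 0.313 over 2625 CD24high-only regions, and the peaks of a region share position, so this is a description. The median gap between replicate percentiles was 23.2 points in CD24neg-only and 22.2 points in CD24high-only regions. Gaps over 50 points occurred in 643 (16.3%) and 408 (15.5%) regions. B2m, the light chain of MHC class I, was one of large range, with a CD24high-only region over its promoter (chr2:122147437-122147986) that scored 384 and 60.

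Regions of both sets fell in 1 gene in some cases, although by definition never at the same place. Of the genes with a CD24neg-only region, 462 also had a CD24high-only one, which was 20.3% of the 2280 and 27.0% of the 1712. Their median span was 104907.5 bp. Within 1000 bp of a gene end, where 777 genes (3.55%) had a CD24neg-only, 646 (2.95%) a CD24high-only and 56 (0.256%) a shared region, 33 genes had both kinds. Over promoter windows 3 had both, namely the clock gene Per1, the splicing factor gene Hnrnph1 and the selenoprotein gene Selenop. A CD24high-only region lay within 10000 bp of 281 CD24neg-only regions (7.12%). Arid1b, a subunit of the BAF remodeller, held 5 CD24neg-only and 4 CD24high-only regions, and the best of each scored 91 and 104 and 332 and 300. Foxp1, a forkhead repressor, held 4 and 5. Cux1, a homeodomain factor, held 7 CD24neg-only and 0 CD24high-only regions, while Pip5k1b, a lipid kinase gene, held 1 and 6. The long calcium pump and channel genes Atp2b2 and Cacna1c held 5 CD24neg-only regions each and 0 CD24high-only ones.

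Shared regions were few and, of the 3 sets, had the lowest median distance to a start site, although the 102 regions in no set had a median of 6247 bp. Mxd3, a MAX partner of the MYC network, had a shared region over its whole promoter window (chr13:55329636-55330083), which scored 156 and 90 in CD24neg and 120 and 247 in CD24high. In the shared region of Runx1 (chr16:92698751-92698897) the scores were 80 and 104 and 68 and 88, and that gene also held 2 CD24neg-only and 1 CD24high-only regions. Gli3, the hedgehog effector, scored 109 and 121 in CD24neg and 51 and 63 in CD24high, both CD24neg scores above both CD24high scores on scales that are not comparable between libraries. Other list genes with a shared region were Hdac4, Nsd2, Gnas, Ltbp1, Lpcat1, Krt18 and Fat3. Over the 151 shared regions, rho between a CD24neg and a CD24high list ranged from -0.0718 to 0.251, and between replicates it was 0.277 in CD24neg and 0.393 in CD24high.

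Regions of 1 population were also found in the vehicle list of the other population more often than in that of their own. Of the 3949 CD24neg-only regions, 535 (13.5%, 12.5% to 14.7%) were in the CD24high vehicle list and 85 (2.15%) in the CD24neg vehicle list. Of the 2625 CD24high-only regions, 280 (10.7%, 9.51% to 11.9%) were in the CD24neg vehicle list and 101 (3.85%) in the CD24high vehicle list. Of the 151 shared regions, 2 and 3 were in them. Over all 6827 regions the share was 9.52% in the CD24high vehicle list and 5.42% in the CD24neg vehicle list. The vehicle lists were of 1 library each, with 8870 peaks in CD24neg and 12985 in CD24high, so these shares have no replicate check. A list selected against the other arm of the same population is short of overlaps with that arm by construction. Examples listed for CD24neg G9ai and CD24high vehicle were Irx2, Tmem154 (scores 240 and 217) and Scnn1a, which encodes a subunit of the epithelial sodium channel (chr6:125319029-125319312, scores 151 and 194). In the opposite case were Clic6, an intracellular chloride channel gene (264 and 176), and Ski, a repressor of SMAD proteins (207 and 150). In both CD24low G9ai lists were 399 CD24neg-only (10.1%), 297 CD24high-only (11.3%) and 25 shared regions (16.6%), against 10.6% of all regions. In both CD24low vehicle lists were 151 (3.82%), 95 (3.62%) and 11 (7.28%), against 3.81% of all regions. In either arm of CD24low the CD24neg-only and CD24high-only shares thus lay near the share of all regions.

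Lists of other cell types were short, and their shares stood on either side of the 10.4% and 7.82% of all genes. None of the 5 sort marker genes (Cd24a, Epcam, Ly6a, Pecam1 and Ptprc) had a region in any set, and lists selected against vehicle do not allow the sorted populations to be checked by them. Endothelial genes had 3 of 27 members (11.1%) with a CD24neg-only region (Ecscr, Flt4 and Vwf) and 1 with a CD24high-only region (Prox1). Of 32 leukocyte genes, 2 had a CD24neg-only (Cd14 and Rac2) and 2 a CD24high-only region (Cd79a and Ikzf1). The region of Cd79a overlapped the promoter of its neighbour Arhgef1. Mesenchymal genes had 1 of 24 and 0, neuroendocrine genes 2 of 16 (12.5%) and 1 (6.25%), and mesothelial genes 1 of 10 and 1. Interferon and MHC class I genes had 4 of 45 (8.89%) and 3 (6.67%), imprinted genes 3 of 34 and 3, germline genes 1 of 32 and 2, cell cycle genes 1 of 33 and 1, and housekeeping genes 3 of 30 and 0.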

How the data were processed

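ATAC-seq peak lists of lung epithelial cells were analysed as deposited. Per the submitters' processing notes, FastQC, Bowtie2 and MACS2 were used with build mm10; versions, read shift, duplicate removal, thresholds and the making of the subsets are not stated. Peak names show that peaks were called for each library and marked NFR, a term the labels do not explain. The deposited value of each peak is the score that the authors' peak caller gave it, on an unstated scale, and it was turned into a percentile within its list. Files hold no read counts, so depth and the precision it gives are unknown.

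Repeated lines were dropped and peaks merged with Python 3.11.15, numpy 2.4.6, pandas 2.3.3 and scipy 1.17.1, and figures were drawn with matplotlib 3.10.9. The scripts were tested on simulated data. Genes and promoters came from RefSeq (GRCm38.p6), by symbol; 922 of 926 list names matched, in 27 lists. Promoter windows were at hand for 17492 of 21887 protein-coding genes. Lists of 10 libraries were analysed, 8 samples were not analysed here, and sequence of the regions themselves was not used here.

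Groups were taken from the sample labels. Replicate 2 of both populations shares 1 prefix in its peak names and replicate 3 another, but with 2 pairs the numbers are not shown to pair the samples. Libraries were compared with two-sided exact permutation tests, 2 against 2, which measure only the spread between their peak lists. Replicate lists nearly coincide, so this spread and the SDs do not show how much libraries differ. No test was made across regions or genes.

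The members and gene lists were chosen with earlier results of these data known. Named were, for each set, up to 15 list genes and 10 other genes with the highest mean score percentile, the 5 genes with most regions, the 5 promoters of highest percentile, a short list of marker genes and up to 10 genes with both kinds. Other list genes and all cilium genes outside the lists were named for their roles after their values were seen. Alternatives were the higher-scoring 50% of peaks, lists of equal length, merging over 500 bp, a peak covering at least 50% of its region, repeated lines kept, other gene links, leaving out each library, and a replicate block.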

Additional observations from a re-analysis of the deposited data

How the results depend on the processing

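Counts of regions moved with the peaks that entered, and counts of genes also with the gene link. With the higher-scoring 50% of peaks in each list there were 1187 CD24neg-only, 822 CD24high-only and 16 shared regions, and 803 and 596 genes. The share near a gene end was then 20.0% for CD24neg-only and 21.3% for CD24high-only regions, the share in both CD24low G9ai lists 11.2% for CD24neg-only and 13.5% for CD24high-only regions, and the share of CD24high-only regions in the CD24neg vehicle list 8.52%. With lists of 2798 peaks each there were 1895 CD24neg-only and 78 shared regions, and 1251 genes with CD24neg-only against 1715 with CD24high-only regions. Where a peak had to cover at least 50% of its region, 65 regions were shared. Genes with CD24neg-only and CD24high-only regions numbered 777 and 646 within 1000 bp of a gene end and 298 and 229 by promoter window. These alternatives use fewer peaks or a narrower link by construction.

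Leaving out 1 library at a time gave 3950 to 4020 CD24neg-only, 2627 to 2663 CD24high-only and 148 to 151 shared regions. Replicate lists of a population overlapped by 99.1% to 99.6%, so near-equal counts were built in and are no check of them. The share of CD24neg-only regions over a promoter window ranged from 8.13% (without CD24neg replicate 3) to 9.17%. The difference in median peak width, CD24neg minus CD24high, was -9.0 bp without replicate 3 and 8.0 bp without replicate 2, so it has no stable direction. With the replicate number as a block (replicate block), the difference in peaks per list was 1353.5 with p = 0.5 by the exact permutation test, the smallest p it allows, and that in the share near gene ends was -4.72 percentage points with p = 0.5. With unknown depth, absence from a list cannot be read as absence of accessibility. The RFX alternatives were added after the data were seen: with 1 list of the set's own population left out, the shares were 17.5% and 18.7% for CD24neg-only and 7.93% and 7.04% for CD24high-only regions. The list kept nearly repeats the list left out, so these values are no independent check either.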
